A study of Mus musculus with 192 samples.

Results

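The interscapular brown adipose tissue (iBAT) of mice that stayed on the ground was compared between 6 male mice lacking the transcription factor Nrf2 (GC_KO) and 6 male wild type mice (GC_WT). The libraries were chosen by tissue, condition and genotype in the sample labels, which gave 12 of the 192 samples of a study of 2 genotypes on the ground and in space. GC_KO mice carried the Nfe2l2tm1Ymk knockout allele in the whole body, so that all cell types of the fat lacked Nrf2, and both genotypes were on the C57BL/6J background, were bred at the same breeder and were listed with an age of 12 weeks. The ground mice were housed singly in the cage units built for the flight, in a simulation of the mission at a later date, and knockout mice with a hepatic shunt had been excluded. Each library came from 1 mouse. GC_WT mice carried the numbers 3, 5, 6, 7, 8 and 10 in the labels and GC_KO mice the numbers 1, 2, 4, 9, 11 and 12.

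Nrf2, encoded by Nfe2l2, is held in the cytoplasm and destroyed through Keap1 in resting cells. Electrophiles and oxidants release it, and with small Maf proteins it binds antioxidant response elements of genes for glutathione transferases, glutathione synthesis, ferritin and NADPH production. Brown fat takes up glucose and lipoprotein lipids, builds and burns fatty acids in its many mitochondria, and releases the energy as heat through the uncoupling protein Ucp1.

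Expected counts, which are read numbers that RSEM estimates per gene, summed to 15.9 M to 16.3 M reads per library. Differences are given as log2 fold changes of these counts with the standard error (SE) and the adjusted p of edgeR's quasi-likelihood test, and a gene was called when its adjusted p over all 13574 genes tested was under 0.05. Levels are given in TPM (relative transcript abundance, scaled for gene length and library size). The tissue label was checked with 12 brown adipocyte markers, whose summed TPM was 6861 to 8042 in GC_WT and 5690 to 7336 in GC_KO, with Ucp1 and Cidea at the top. Skeletal muscle markers summed to 69.6 to 131 TPM in GC_WT and 61.7 to 176 in GC_KO, with the highest sum in GC_KO replicate 12, and white adipocyte markers to 16.7 to 59.5 and 21.2 to 97.3. None of the 12 marker lists of brown adipocytes and other cell types had a member called by edgeR between the genotypes, while DESeq2 called 1 white adipocyte marker and limma 2 brown adipocyte markers (lower). Some lists still leaned to 1 side. All 12 macrophage (median log2 fold change -0.22), 7 erythroid and 5 smooth muscle markers tested and 7 of 8 fibroblast markers lay below 0. All 5 T lymphocyte markers tested (median 0.56) and 19 of 23 skeletal muscle markers lay above 0. These shifts were not tested as lists. With the mouse number range described next as a term, edgeR called the white adipocyte hormone Lep higher (adjusted p = 0.0274, at 1.23 to 14.8 TPM in GC_WT and 10.8 to 39.7 TPM in GC_KO). With the summed muscle markers as a covariate, 286 of the 291 genes described below as called were called again. In whole tissue, fewer cells of a type and less RNA per cell cannot be told apart.

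The 12 libraries differed by mouse number more widely than by genotype. The first principal component of log2 CPM held 32% of the variance, and within each genotype the mice numbered 1 to 6 lay below those numbered 7 to 12. In GC_WT the scores were -35.2, -21.7 and -22.9 for mice 3, 5 and 6 and -3.2, 3.9 and 17.4 for mice 7, 8 and 10. In GC_KO they were -16.5, -10.9 and -10.5 for mice 1, 2 and 4 and 30.2, 35.6 and 33.8 for mice 9, 11 and 12. Within each range every GC_KO score lay above every GC_WT score, so this component also differed by genotype. Each genotype had 3 mice in each range of numbers, and the labels do not say what the numbers stand for. With the number range as a term, chosen after the values were seen, 2398 of 13574 genes (17.7%) were called between the ranges. Circadian clock genes stood out among them, and 6 of 19 were higher and 11 lower in mice 7 to 12. The clock output gene Dbp was at 11.5 to 21.5 TPM in the 6 mice numbered 1 to 6 and at 2.93 to 5.8 TPM in the others, and the clock activator Arntl was at 2.27 to 4.53 and 8 to 12.8 TPM. No clock gene was called between the genotypes, with or without this term. Because each range held 3 mice of each genotype, the genotype values below are given over all 12 mice. Values within the ranges are given where the members differed between them. Within mice 1 to 6 GC_KO had mostly the lower numbers, and within mice 7 to 12 mostly the higher ones. A trend with number inside a range and the genotype difference there thus cannot be told apart.

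**Figure D1:**
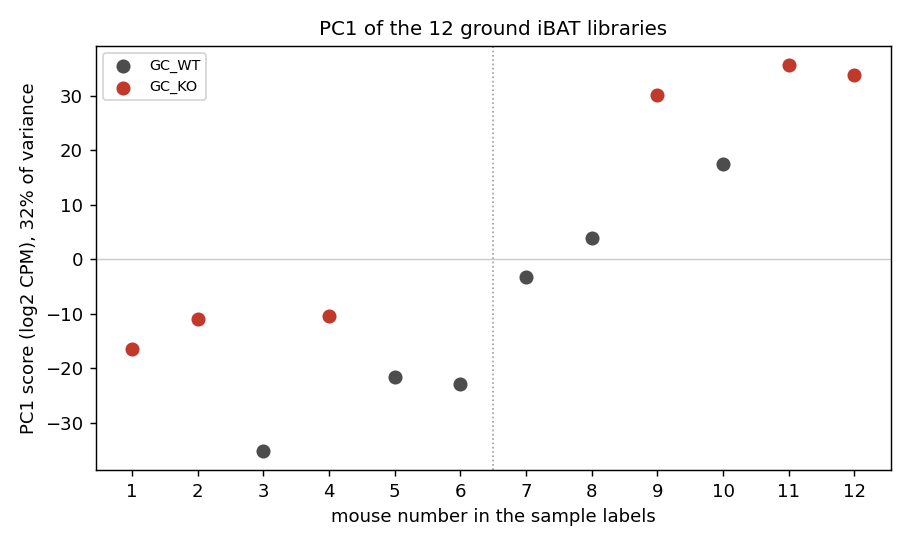
Score of each of the 12 ground iBAT libraries on the first principal component of log2 CPM (vertical axis, 32% of the variance) against the mouse number in the labels (horizontal axis), with GC_WT in grey and GC_KO in red. Within each genotype the 3 mice numbered 7 to 12 lie above the 3 numbered 1 to 6, and the vertical dotted line marks the border between the ranges. Within each range the GC_KO mice lie above the GC_WT mice.

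Nfe2l2 itself (ENSMUSG00000015839.6, GRCm38 chr2:75675513-75704641, minus strand) was lower in every GC_KO mouse. It was at 35.6, 37.4 and 40.5 TPM in GC_WT (lowest, median and highest) and at 11.8, 13.8 and 16.5 TPM in GC_KO. The groups did not overlap, and the GC_KO mean was 37.0% of the GC_WT mean, a change of -1.36 on the log2 scale (SE 0.112, adjusted p = 3.36e-08). Reads of the locus were still counted in the knockout, and counts per gene do not show which exons they came from. Of 13 tested genes of the CNC, Keap1, small Maf and Bach group Nfe2l2 was the 1 called. With the mouse number range as a term the small Maf gene Maff was called higher (adjusted p = 0.0318, at 1.07 to 5.67 TPM in GC_WT and 2.53 to 14.5 TPM in GC_KO). Keap1, the adaptor that marks Nrf2 for degradation, was at 15.3 to 18.5 TPM in GC_WT and 14.4 to 17.5 TPM in GC_KO.

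Between GC_KO and GC_WT, 138 genes (1.02% of those tested) were higher and 153 (1.13%) were lower in GC_KO, 291 (2.14%) in all, and 1720 genes had an unadjusted p under 0.05. The called genes that were higher had a median log2 fold change of 0.70 and the lower ones of -0.58, while the median of all genes tested was -0.00074. Among these, 44 of the higher and 40 of the lower calls exceeded 1 on the log2 scale. The 6 mice of a genotype did not overlap with the other 6 in TPM for 115 of the 153 lower genes and for 36 of the 138 higher genes, beside 2.49% of all genes tested. On the log2(TPM + 1) scale limma called 62 genes higher and 216 lower, so that 22.3% of its calls were higher, against 47.4% by edgeR. The log2 ratio of GC_KO to GC_WT mean TPM, with 1 added to each, had a median of -0.058 over all genes tested. The TPM scale, which limma and the counts of overlap used, thus lay slightly lower in GC_KO, and the part of this shift in those counts was not tested. With the mouse number range as a term, 383 genes were higher and 338 lower (5.31%), and all of the 291 genes were among them. All 134 higher and all 148 lower genes that could be fitted on the 12 ground libraries alone had the same sign in mice 1 to 6 and in mice 7 to 12, which the choice of the genes on these same mice largely fixes. By edgeR 0 genes were called for a difference in the genotype effect between the ranges, where 893 genes had an unadjusted p under 0.05.

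Classical Nrf2 targets were lower in GC_KO in a small number of genes, and the mu class glutathione transferases led them. The study treated 26 detoxication and antioxidant genes as typical targets, of which 22 were expressed enough to be tested. Of these 22, 4 were called lower and none higher, beside 1.13% of all genes called lower. The median log2 fold change was -0.11, and 9 of the 22 had an unadjusted p under 0.05, beside 1720 of all 13574 genes tested. The study displayed this list on the tissues of these mice, so it is not independent evidence of its direction. Of 21 glutathione transferases tested, which attach glutathione to electrophiles, 5 were lower, beside the same 1.13%. The list median was -0.17, and 11 of the 21 had an unadjusted p under 0.05. Nqo1, a quinone reductase that commonly serves as a readout of Nrf2, was at most 0.5 TPM in GC_WT and 0.43 TPM in GC_KO and was not tested, as were Gsta2, Gstm3 and Gpx2.

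The promoters of the glutathione transferases and of Nfe2l2 are shown because the letters TGACNNNGC are the core of the antioxidant response element. The letters were searched on both strands from 250 bases before to 50 bases after each RefSeq start (GRCm38.p6). The stretches run 5′ to 3′ along the gene, and capitals mark the match.
Gsta3: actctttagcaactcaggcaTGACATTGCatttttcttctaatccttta
Gstm7: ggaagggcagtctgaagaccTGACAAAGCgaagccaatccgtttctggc
Nfe2l2: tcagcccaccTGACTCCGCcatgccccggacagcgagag
The match began 121 bases before the start of Gsta3 (chr1:21240444-21240492, plus strand), 129 bases before that of Gstm7 (chr3:107931715-107931763, minus strand) and 240 bases before that of Nfe2l2 (chr2:75704875-75704913, minus strand). The promoters of Gstm1, Gstm2, Gsto1, Ftl1 and Gss did not hold these letters in the window. RefSeq promoters were found for 111 of the 153 lower and 101 of the 138 higher genes. The letters were in 16.7% of the promoters of the lower genes, in 12.8% of those of the higher genes and in 14.3% of those of all genes tested, beside 12.4% of all promoters of the table.

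Gstm1 (chr3:108012255-108017973) was at 116, 126 and 169 TPM in GC_WT and at 42.2, 49.97 and 57.2 TPM in GC_KO (lowest, median and highest). No GC_KO mouse reached the lowest GC_WT mouse, and the log2 fold change was -1.31 (SE 0.0865, adjusted p = 7.62e-10). Its neighbours Gstm2 and Gstm7 on chromosome 3 fell with it. Gstm2 was at 23.95, 25.7 and 33.5 TPM in GC_WT and at 10, 11.3 and 13.04 TPM in GC_KO, a log2 fold change of -1.17 (adjusted p = 2.69e-07). Gstm7 was at 7.04, 8.68 and 14.6 TPM and at 3.12, 4.7 and 5.83 TPM, a log2 fold change of -1.002 (adjusted p = 0.00111). The mu class genes are close paralogs, so reads could be divided between them by the counting, and Gstm4 (8.86 to 10.7 TPM in GC_WT, 8.31 to 13.1 TPM in GC_KO) and Gstm5 (17.6 to 23.3 and 14.7 to 21.0 TPM) were not called. The alpha class gene Gsta3 had the largest fold change of the 5. It was at 3.2, 7.29 and 17.9 TPM in GC_WT and at 0.57, 1.24 and 2.03 TPM in GC_KO, without overlap, a change of -2.51 on the log2 scale (SE 0.591, adjusted p = 0.0239). GC_WT replicate 8 had the highest level of these 4 transferases, and without it, GC_WT replicate 3, GC_KO replicate 9 or GC_KO replicate 11 the adjusted p of Gsta3 was above 0.05 (at most 0.0699). Gsto1, of the omega class, was lower by a smaller step, from 61.2 to 79.1 TPM in GC_WT to 46.7 to 52.4 TPM in GC_KO (log2 fold change -0.36, adjusted p = 0.0133).

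Ferritin light chain, glutathione synthetase and the secreted glutathione peroxidase fell as well. Ftl1, a subunit of the iron storage protein ferritin, was at 549, 644 and 746 TPM in GC_WT and at 310, 325 and 359 TPM in GC_KO. The groups were far apart (log2 fold change -0.91, SE 0.0817, adjusted p = 1.45e-07), and Ftl1-ps1, a near copy on chromosome 13 with which it can share reads, moved the same way by -2.35 (adjusted p = 0.00205). The heavy chain Fth1 was at 1755 to 2372 TPM in GC_WT and 1891 to 2179 TPM in GC_KO and was not called. Gss, which joins glycine to complete glutathione, was at 9.92 to 12.5 TPM in GC_WT and 6.33 to 8.71 TPM in GC_KO (log2 fold change -0.46, adjusted p = 0.000929). Gpx3, the extracellular glutathione peroxidase, was at 1064, 1304 and 1596 TPM in GC_WT and at 742, 789 and 906 TPM in GC_KO, a log2 fold change of -0.59 (adjusted p = 0.00224). Gclc and Gclm, the subunits of the enzyme that limits glutathione synthesis, were at 7.11 to 10.6 and 18.2 to 25.2 TPM in GC_WT and at 5.51 to 7.15 and 18.7 to 28.3 TPM in GC_KO and were not called.

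**Figure D2:**
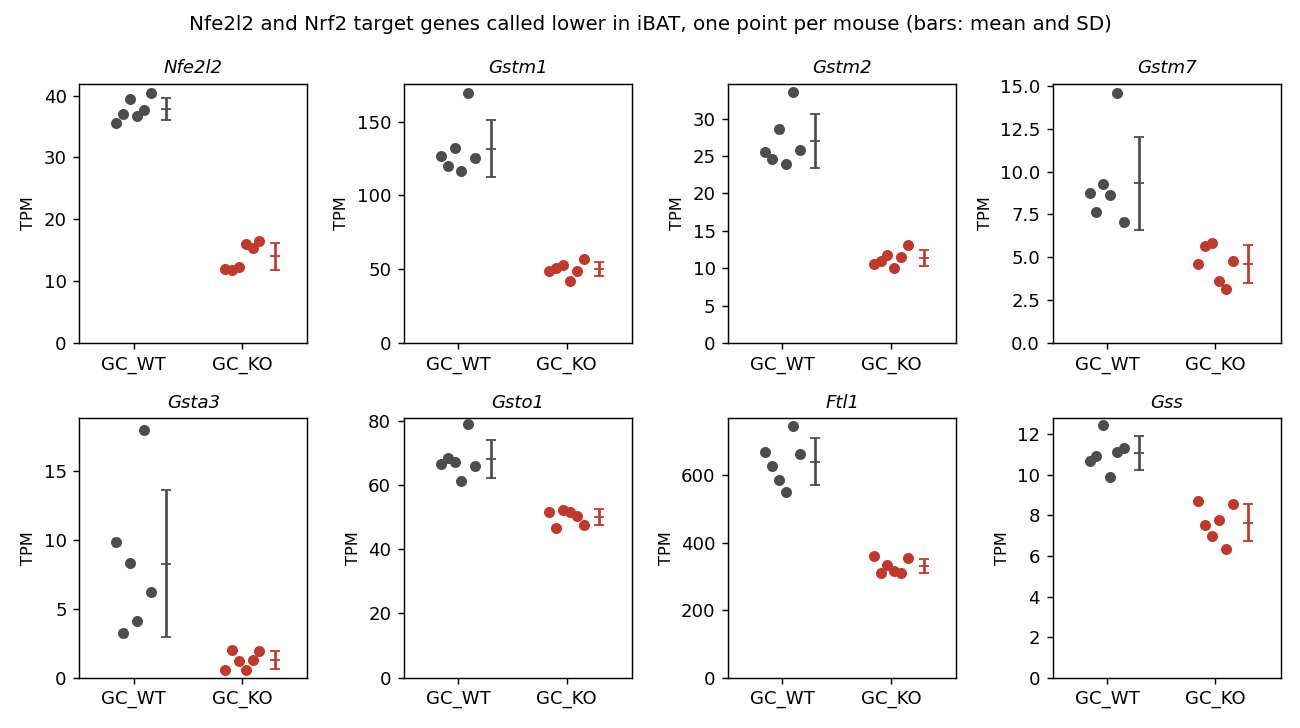
TPM of Nfe2l2 and of 7 genes called lower in GC_KO (vertical axes, linear from 0), 1 point per mouse, with bars for the mean and SD of the 6 mice. For each of the 8 genes the highest GC_KO mouse lies below the lowest GC_WT mouse, and 1 GC_WT mouse lies above the others for Gstm1, Gstm7 and Gsta3.

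Other members of the antioxidant system gave few or no calls. Of 13 thioredoxin, sulfiredoxin and peroxiredoxin genes 0 were called by edgeR, with 2 at an unadjusted p under 0.05, 1 called by DESeq2 and 0 by limma, and the list median was 0.03. Txnrd1 was at 22.7 to 33.2 TPM in GC_WT and 20.8 to 26.3 TPM in GC_KO, and the haem oxygenase Hmox1 at 4.07 to 13.6 and 2.97 to 8.58 TPM, with overlap in each case. Among 28 tested oxidoreductases and hydrolases 3 were lower, beside 1.13% of all genes. The carboxylesterase Ces1f was at 30.6, 40.5 and 81.9 TPM in GC_WT and at 7.32, 12.6 and 14.8 TPM in GC_KO, a change of -1.85 on the log2 scale (SE 0.215, adjusted p = 8.04e-06). Its neighbour Ces1d, a triglyceride hydrolase, was lower by 0.36 on the log2 scale (adjusted p = 0.0210), and aldehyde oxidase Aox1 was at 18.1 to 33.4 TPM in GC_WT and 12.6 to 17.5 TPM in GC_KO (log2 fold change -0.58, adjusted p = 0.00215). The drug efflux pump Abcb1b was the 1 of 9 efflux transporters called, at 2.2 to 3.33 and 1.46 to 2.33 TPM. Ces1d lost its call without GC_KO replicate 9, 11 or 12 or GC_WT replicate 3 or 6, and Abcb1b without GC_KO replicate 9. Of 10 NADPH producing enzymes, which also include Nrf2 targets, 8 lay above 0, with a median of 0.20. Pgd, of the pentose phosphate pathway, was called higher, at 137, 193 and 286 TPM in GC_WT and at 209, 274 and 355 TPM in GC_KO (log2 fold change 0.60, adjusted p = 0.0373), while malic enzyme Me1 was at 174 to 268 and 183 to 306 TPM and was not called.

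Genes of fatty acid and cholesterol synthesis made up most of the listed genes called higher in GC_KO, and no member of either list was called lower. Of 22 tested genes of lipogenesis 5 were called higher and 19 lay above 0, with a median log2 fold change of 0.56. Of 23 tested genes of cholesterol synthesis and uptake 8 were called higher and 22 lay above 0, with a median of 0.46. Of all genes tested 1.02% were called higher. The median over all genes tested was -0.00074. DESeq2 called 8 and 9 genes of the lists higher, and limma on log2(TPM + 1) called 3 and 1. The calls in both lists depended on single mice: with each ground mouse left out in turn, 2 to 7 lipogenesis genes and 1 to 8 cholesterol genes were called, and the lowest number for cholesterol came without GC_KO replicate 11. Of the members called, Slc25a1 and Acss2 were called under every alternative. Acly, Acaca, Thrsp, Pgd, Mvd, Lss, Fdps, Nsdhl and Dhcr7 each lost the call without GC_KO replicate 11, with a highest adjusted p over the alternatives of 0.144 for Thrsp.

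The citrate carrier Slc25a1, which moves citrate out of mitochondria for fatty acid synthesis, was at 285, 341 and 487 TPM in GC_WT and at 473, 636 and 792 TPM in GC_KO. Only the lowest GC_KO mouse fell within the GC_WT range, and the log2 fold change was 0.86 (SE 0.138, adjusted p = 0.000661). Acly, which splits that citrate into acetyl-CoA, was at 253, 524 and 959 TPM in GC_WT and at 712, 1064 and 1648 TPM in GC_KO, with overlap, a change of 1.16 on the log2 scale (SE 0.283, adjusted p = 0.0309). Acetyl-CoA carboxylase Acaca, the committed step of fatty acid synthesis, was at 215, 280 and 386 TPM and at 384, 424 and 512 TPM (log2 fold change 0.69, adjusted p = 0.0487). Acss2, which makes acetyl-CoA from acetate, did not overlap, at 68.7 to 127 TPM in GC_WT and 130 to 216 TPM in GC_KO (log2 fold change 0.79, adjusted p = 0.00398). It overlaps Gss on the opposite strand of chromosome 2, and reads of the overlap could be given to either gene, which moved in opposite directions. The lipogenic regulator Thrsp was at 1227 to 2238 TPM in GC_WT and 1743 to 3065 TPM in GC_KO (log2 fold change 0.64, adjusted p = 0.0479). Fasn, the fatty acid synthase, was at 2028, 3001 and 4300 TPM in GC_WT and at 3932, 4095 and 5123 TPM in GC_KO, but its log2 fold change of 0.61 was not called (adjusted p = 0.191). Their transcription factor Srebf1 was at 36.4 to 137 and 47.1 to 160 TPM and was not called either (adjusted p = 0.417).

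In the cholesterol pathway the calls included mevalonate steps and a last reductase. Mvd, which makes isopentenyl pyrophosphate, was at 2.85, 4.83 and 8.44 TPM in GC_WT and at 5.42, 10.5 and 16.2 TPM in GC_KO (log2 fold change 1.07, SE 0.243, adjusted p = 0.0202). Fdps, the farnesyl pyrophosphate synthase, rose by 0.63 on the log2 scale (adjusted p = 0.0355) and lanosterol synthase Lss by 0.69 (adjusted p = 0.0138). Dhcr7, which catalyses the last step to cholesterol, was at 4.31 to 10.9 and 7.59 to 23.8 TPM (log2 fold change 0.96, adjusted p = 0.0427). The sterol regulator Srebf2 was not called (log2 fold change 0.12, adjusted p = 0.744).

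These genes also differed by mouse number, in the same direction as by genotype. In mice 7 to 12 against 1 to 6, with genotype in the fit, 7 lipogenesis and 8 cholesterol genes were called higher and none lower. Of all 13574 genes tested, 1299 were called higher and 1099 lower by mouse number. Dhcr7 differed between the number ranges by 0.96 on the log2 scale (adjusted p = 0.000130), and the 3 GC_KO mice numbered 9, 11 and 12 held the 3 highest levels of Acly, Mvd and Dhcr7 among GC_KO mice. The median genotype difference within the ranges, of 3 against 3 mice, was not tested for the lists. It was 0.42 in mice 1 to 6 and 0.59 in mice 7 to 12 for lipogenesis, and 0.38 and 0.65 for cholesterol. Inside a range number and genotype were not balanced, so these values cannot be told apart from a trend with number. With the number range as a term, 9 of 22 lipogenesis genes and 10 of 23 cholesterol genes were called higher by genotype, Srebf1 and Mlxipl included, beside 2.82% of all genes tested.

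**Figure D3:**
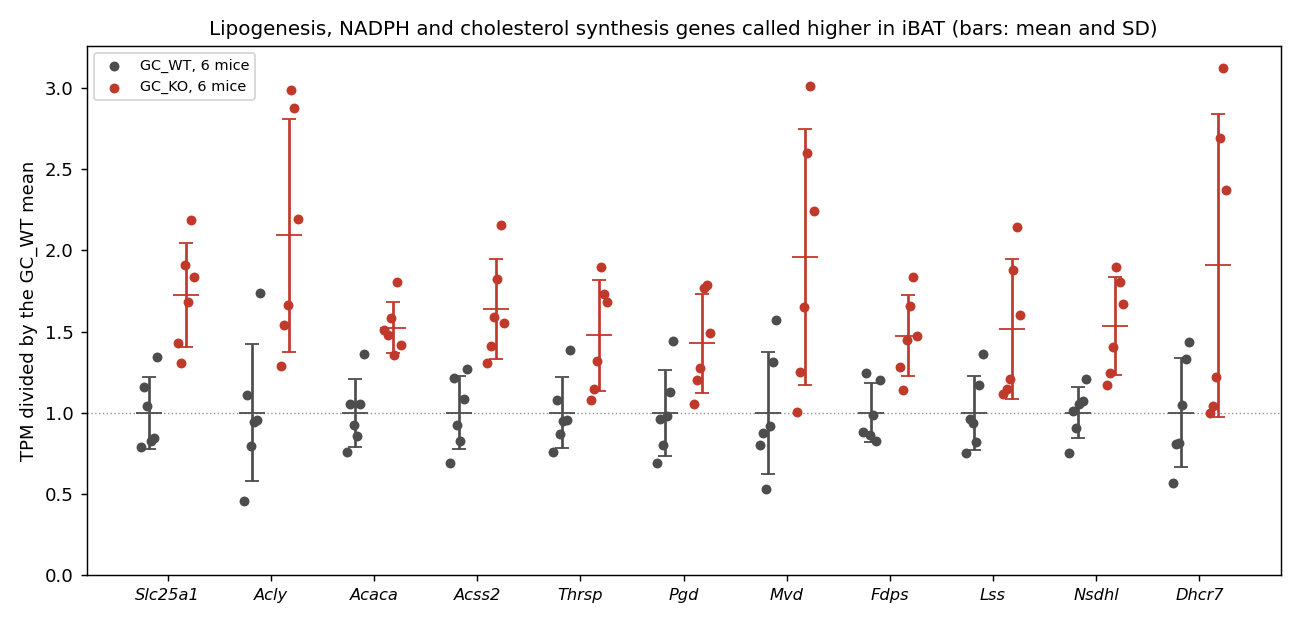
TPM of 11 lipogenesis, NADPH and cholesterol synthesis genes divided by the GC_WT mean of the gene (vertical axis, linear from 0), 1 point per mouse, with bars for mean and SD (6 mice per genotype, GC_WT in grey, GC_KO in red). GC_KO means lie above 1 for all 11 genes, and Acss2 is separated without overlap.

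Genes of fatty acid burning and uptake were lower in a few members. Of 34 tested genes of fatty acid oxidation 4 were called lower and none higher, beside 1.13% of all genes called lower, and 30 lay below 0, although by little, with a median log2 fold change of -0.09. Acadl, the long-chain acyl-CoA dehydrogenase and one of the most abundant members, was at 1277, 1390 and 1548 TPM in GC_WT and at 964, 985 and 1050 TPM in GC_KO. No mouse of one group reached the other (log2 fold change -0.41, SE 0.0615, adjusted p = 0.000274). Ehhadh, the bifunctional enzyme of peroxisomal oxidation, was at 28.9, 50.1 and 76.4 TPM and at 9.48, 20.6 and 32.7 TPM (log2 fold change -1.22, adjusted p = 0.0371). It also differed by mouse number, lower by 1.13 on the log2 scale in mice 7 to 12 (adjusted p = 4.51e-05). Its genotype difference was -1.06 in mice 1 to 6 and -1.56 in mice 7 to 12, where number and genotype were not balanced within a range. Ivd, of leucine breakdown, fell by 0.28 (adjusted p = 0.0439). Acadl was called under every alternative, whereas Ehhadh and Ivd were not called without GC_KO replicate 9, 11 or 12 or GC_WT replicate 3, 6 or 8, with adjusted p up to 0.138. Ivd also lost its call by limma, with RLE factors, without a filter and with FL_KO replicate 4 included. Cpt1b, which admits fatty acids to mitochondria, was at 244 to 285 and 192 to 276 TPM and was not called.

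Lpl, which releases fatty acids from circulating lipoproteins, was at 962, 1420 and 1702 TPM in GC_WT and at 639, 801 and 979 TPM in GC_KO. The highest GC_KO mouse lay just above the lowest GC_WT mouse, and the log2 fold change was -0.70 (SE 0.134, adjusted p = 0.00474). The glycerol channel Aqp7 was lower by 0.30 (adjusted p = 0.0439), while the fatty acid binding protein Fabp5 was higher, at 55.7 to 73.8 TPM in GC_WT and 59.7 to 160 TPM in GC_KO (log2 fold change 0.79, adjusted p = 0.00826). Of 22 tested genes of lipolysis, uptake and droplets these 3 were called, beside 2.14% of all genes. Among 11 adipokines 2 were lower, beside 1.13% of all genes. Lep was a further, higher call with the mouse number range as a term. Cfd, encoding the complement factor adipsin, varied widely, at 587, 1277 and 2062 TPM in GC_WT and 176, 442 and 748 TPM in GC_KO (log2 fold change -1.39, SE 0.302, adjusted p = 0.0138), and was not called on the 12 ground libraries alone (adjusted p = 0.0502). Adipoq, which encodes adiponectin, was at 471 to 757 and 347 to 499 TPM (log2 fold change -0.40, adjusted p = 0.0241). Adipoq and Aqp7 lost their calls without single mice, GC_KO replicates 9 and 11 and GC_WT replicates 3, 6, 7 and 8 among them for both. Among 38 target genes of the adipocyte regulator PPARγ, 3 were called lower (Adipoq, Lpl and Ces1f) and 1 higher (Thrsp). The shares over all genes were 1.13% lower and 1.02% higher. The PPARγ list was read from a display of white fat genes and is not independent of these mice.

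The thermogenic programme gave 1 call by edgeR in 34 tested genes, beside 2.14% of all genes, and the list median was -0.03. DESeq2 called 1 member higher and 1 lower, and limma 3 lower. An unadjusted p under 0.05 was reached by 11 of the 34 genes, beside 1720 of all 13574 genes tested. In 4 of the 34 the genotypes did not overlap in TPM, beside 2.49% of all genes. With the mouse number range as a term there were 3 calls, with the fatty acid receptor Ppara lower (adjusted p = 0.0354) and the thioesterase Acot11 higher (adjusted p = 0.0135). Ucp1 was at 1811, 2251 and 2626 TPM in GC_WT and at 1679, 2100 and 2657 TPM in GC_KO, a change of 0.04 on the log2 scale (SE 0.216, adjusted p = 0.982). Cidea, a lipid droplet protein abundant in brown fat, was at 1944 to 2442 TPM in GC_WT and 1543 to 2002 TPM in GC_KO and was not called (log2 fold change -0.23, adjusted p = 0.346). The coactivator Ppargc1a ranged from 6.66 to 42.5 TPM and from 4.73 to 10.5 TPM (adjusted p = 0.352), Prdm16 from 2.08 to 7.03 and from 3.43 to 5.83 TPM, and the deiodinase Dio2 from 18.5 to 59.4 and from 7.92 to 55.6 TPM. The gene called was Slc27a2, an acyl-CoA synthetase and fatty acid transporter, at 69.1, 80.8 and 98.5 TPM in GC_WT and 27.5, 39.9 and 61.8 TPM in GC_KO (log2 fold change -0.92, adjusted p = 0.00618).

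Respiratory chain genes were close to equal between the genotypes. Of 79 nuclear genes of the chain and ATP synthase and of 13 mitochondrially encoded genes, edgeR called 0, with 2 of each at an unadjusted p under 0.05 and 0 by DESeq2 or limma, and the medians were -0.0024 and 0.07. Interferon stimulated genes (24 tested), heat shock genes (18), chemokines (9) and collagens (18) gave no call either, with 4, 2, 0 and 1 genes at an unadjusted p under 0.05, and by the other tools the 1 call was a heat shock gene that DESeq2 gave as lower. With the mouse number range as a term the small heat shock protein Hspb8 was called lower (adjusted p = 0.0439). In the integrated stress response list Atf5 was the 1 of 21 called, at 57.3 to 88.2 TPM in GC_WT and 103 to 144 TPM in GC_KO (log2 fold change 0.91, SE 0.169, adjusted p = 0.00375), while Fgf21 was at 0.09 to 1.57 and 0.09 to 3.91 TPM and was not called. Of 22 immediate early genes the phosphatase Dusp1 was higher (9.43 to 23.5 and 30.4 to 44.1 TPM, log2 fold change 1.12, adjusted p = 0.00886) and the nuclear receptor Nr4a3 lower (4.98 to 9.69 and 0.35 to 3.68 TPM, log2 fold change -1.92, adjusted p = 0.0446). The proteasome lid gene Psmd3 was the 1 of 31 proteasome genes called, higher by 0.23. Psmd3 was not called without GC_KO replicate 9 or 11 or by limma (adjusted p = 0.339). Nr4a3 was not called without GC_KO replicate 1, 9, 11 or 12 or GC_WT replicate 3, 5, 6, 7 or 8, with adjusted p up to 0.118. Over the 26 lists together, 41 of 537 tested genes were called, 18 higher and 23 lower (7.64%), beside 2.14% of all genes.

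**Figure D4:**
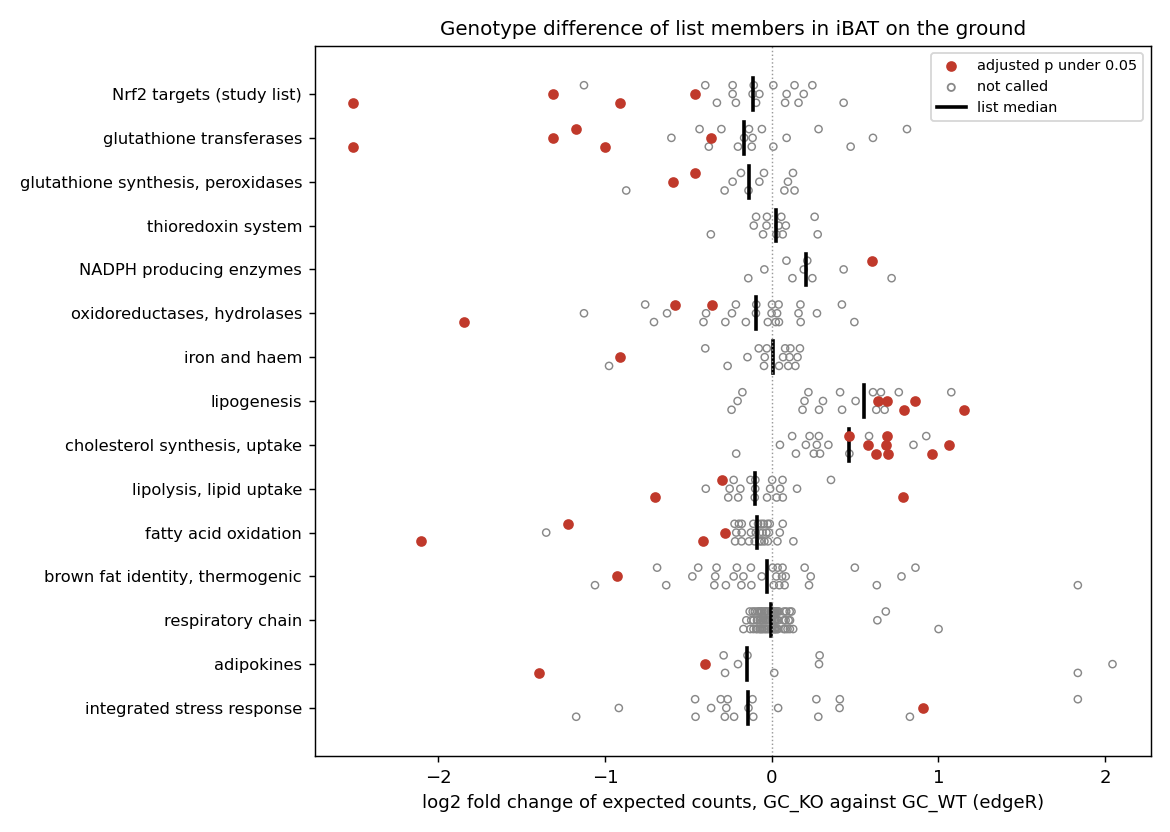
Log2 fold change of expected counts between GC_KO and GC_WT (horizontal axis) for the tested members of 15 gene lists (rows), with called genes in red, other genes as open circles and the list median as a black bar. The medians of lipogenesis (0.56) and cholesterol synthesis and uptake (0.46) lie to the right of 0, and that of the respiratory chain (-0.0024) at 0.

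The 5 genes with the smallest adjusted p were not members of the antioxidant lists, and Gstm1 came next. Wdfy1, an endosomal protein of Toll-like receptor signalling, was at 2.18 to 2.79 TPM in GC_WT and 6.23 to 7.43 TPM in GC_KO (log2 fold change 1.84, SE 0.0784, adjusted p = 5.03e-13), the smallest p of all genes. Vcpkmt, a protein lysine methyltransferase, was at 0.7 to 1.81 TPM and 7.7 to 8.89 TPM (log2 fold change 2.81, adjusted p = 1.40e-10). Ehd1, a regulator of endocytic recycling, was lower, at 49.8 to 61.9 and 26.1 to 28.4 TPM (log2 fold change -0.95, adjusted p = 2.57e-10), and so was Capza1, an actin capping subunit, at 18.9 to 27.9 and 7.29 to 9.19 TPM (log2 fold change -1.34). Cd59a, an inhibitor of complement, was at 54.2 to 61.0 and 28.3 to 31.3 TPM (log2 fold change -0.88), and its paralog Cd59b beside it was also called lower. The amino acid transporter Slc7a8 was at 2.32 to 7.75 TPM in GC_WT and 0.5 to 1.57 TPM in GC_KO (log2 fold change -2.37, adjusted p = 2.30e-05). Dst, a cytoskeletal linker, and Fam57b, a ceramide synthase related protein, were higher by 1.05 and 1.23, and the adrenocorticotropin receptor Mc2r by 1.94.

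Several of these genes lay side by side. Within 0.5 Mb of Ehd1 on chromosome 19, 3 of 31 other tested genes were called, namely Cdc42bpg (log2 fold change -1.26), Men1 and Ppp2r5b. Sfxn2 (log2 fold change -2.12), also on chromosome 19, had Wbp1l, Borcs7 and As3mt called among 22 tested neighbours. Of all genes tested 2.14% were called. Other named genes had no called neighbour within 0.5 Mb, such as Wdfy1 (0 of 3 tested), Capza1 (0 of 7), Slc7a8 (0 of 26) and Fam57b (0 of 48). On chromosome 14 the paralogs Entpd4 and Entpd4b, Golgi nucleotide phosphatases that can share reads, were higher by 1.37 and 1.39, and the antisense gene Gm27177, which overlaps Entpd4b, rose from 0.03 to 0.12 TPM in GC_WT to 1.43 to 2.93 TPM in GC_KO. The libraries were made with a strand-specific kit, but the strand setting of the counting is not given in the sources used here, so it is uncertain whether reads of the antisense gene and its partner were kept apart. Vcpkmt and the pseudogene Gm7868, which had 3 reads over the 6 GC_WT mice and 246 over the 6 GC_KO mice, were 0.5 Mb apart or less on chromosome 12.

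A run of 5 predicted genes on chromosome 4 (GRCm38 chr4:42206998-42242685) was all but absent in GC_KO. The genes were singled out after their values were seen. Gm5859 had 143 reads over the 6 GC_WT mice, 14 to 33 in each, and 0 in all 6 GC_KO mice, which is at least 47.7-fold lower when 3 reads over the group are taken as the limit. Gm10600 had 71 and 0 reads (at least 23.7-fold lower) and Gm17167 had 53 and 0 (at least 17.7-fold lower). Gm13301 had 156 and 1 reads, and Gm17081 30 and 2. In the flight mice, which were other animals, Gm13301 had 1197 reads over 6 FL_WT mice and 0 over 5 FL_KO mice. Of these genes 3 are annotated as pseudogenes, and near-identical copies can share their reads.

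Genes near Nfe2l2 were counted, without a test. Within 10 Mb of the gene on chromosome 2, 6 of 92 tested genes (6.52%) were called, Nfe2l2 included, against 2.48% on the rest of the chromosome and 2.09% on the others. Within 5 Mb it was 5 of 54 (9.26%) and within 20 Mb 7 of 169 (4.14%). Agps, a peroxisomal enzyme of ether lipid synthesis that starts 0.128 Mb from Nfe2l2, was higher by 0.35 on the log2 scale (adjusted p = 0.00526), and the phosphodiesterase Pde1a at 4.13 Mb was lower, at 9.33 to 13.2 TPM in GC_WT and 4.82 to 8.76 TPM in GC_KO. Chn1, Mettl8 and Slc43a1 were the others, by 0.67, 0.38 and -1.36. The knockout and wild type alleles differ at the locus itself, and the part of linked differences in these values was not tested.

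The same contrast was available in other mice, namely 6 FL_WT and 5 FL_KO mice that had lived in orbit. A further knockout mouse, FL_KO replicate 4, was left out. None of these mice stood in the ground contrast, but their libraries entered the same fit and so the spread and the filter behind the ground values. Without FL_KO replicate 11 the ground contrast had 126 higher and 143 lower calls, and on the 12 ground libraries alone 158 and 155, with 215 of the 291 genes among them. The flight contrast called 31 genes higher (0.228%) and 172 lower (1.27%), 203 (1.5%) in all. Of the 153 genes lower on the ground, 135 had the same sign in flight and 57 were also called lower, while of the 138 higher genes 99 had the same sign and 19 were also called higher. These are 37.3% and 13.8% of the ground calls and 33.1% and 61.3% of the flight calls, and none was called in the opposite direction. The median of the lower genes was -0.58 on the ground and -0.33 in flight, and that of the higher genes 0.70 and 0.14. The genes were chosen by their ground values, so the medians are given as a description. Skeletal muscle markers summed to 13776 TPM in FL_KO replicate 11, 11221 TPM in FL_WT replicate 6 and 5492 TPM in FL_WT replicate 8, against 42.6 to 153 TPM in the other flight libraries. Without FL_KO replicate 11, 131 of the lower genes kept their sign and 51 were called, and of the higher genes 96 and 16.

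In flight Nfe2l2 changed by -1.34, Gstm1 by -1.39, Gstm2 by -0.94, Gsta3 by -3.06, Gstm7 by -0.87 and Ces1f by -1.93, all called, beside Acadl by -0.55 and Cd59a by -1.19. Gss (-0.12) and Gpx3 (0.21) were not called there. Lipid synthesis genes were not called in flight. The flight medians were -0.09 for lipogenesis and 0.07 for cholesterol, Acly was at 0.01 and Slc25a1 at -0.13. Fatty acid oxidation had 14 lower calls of 34 genes in flight, beside 1.27% of all genes, with a median of -0.32.

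The difference between the genotype effects in flight and on the ground was tested gene by gene. By edgeR 0 genes passed, where 1127 had an unadjusted p below 0.05. DESeq2 called 99 and limma on log2(TPM + 1) called 7. With the mouse number range as a term for the ground and for the flight mice, edgeR called 87 genes (0.641%). Of the lipogenesis list Slc25a1 (-0.97, SE 0.192, adjusted p = 0.0312), Acss2 (-0.98, SE 0.209, adjusted p = 0.0385) and Agpat2 were among these 87. Pgd (-1.01, SE 0.167, adjusted p = 0.0184) and Fabp5 were among them too. Each of these genes had a lower genotype effect in flight than on the ground. Without the term, the ground and flight effects were 0.86 and -0.13 for Slc25a1 and 0.79 and -0.22 for Acss2. They were 0.60 and -0.37 for Pgd and 0.79 and -0.13 for Fabp5, and none of these flight values was called. No cholesterol gene passed. Gpx3 (0.80, SE 0.157, adjusted p = 0.0312) was among the 87 as well, and DESeq2 and limma also called it. So were Hsd17b4 (-0.44), Hadha (-0.44) and Cpt2 (-0.41) of the fatty acid oxidation list, with a lower genotype effect in flight than on the ground. For Gpx3 and for the lists of lipid synthesis and fatty acid oxidation, a difference between ground and flight thus depended on the model.

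Epididymal white fat (eWAT) of the same 12 ground mice was compared next. There 105 genes were higher (0.702%) and 133 lower (0.889%) in GC_KO. Of the 153 genes lower in iBAT, 151 were tested in eWAT, 127 had the same sign and 47 were called lower, and of the 138 higher genes 137 were tested, 121 had the same sign and 19 were called higher, with 1 called the other way. The libraries come from the same animals, so these shares are no independent replication. Gstm1 was lower by 1.12 in eWAT and Ces1f by 2.45, and lipogenesis and cholesterol genes had medians of 0.29 and 0.36 there, with 1 call each.

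A test of the difference between the depots called 23 of 14959 genes (0.154%), 13 (0.0869%) with a higher and 10 (0.0668%) with a lower genotype effect in iBAT. Slc7a8 differed most among the named genes, by -2.96 (SE 0.328, adjusted p = 5.93e-05), being -2.37 in iBAT and 0.58 in eWAT, where it was not called. Gstm2 fell further in iBAT (-1.17) than in eWAT (-0.49), with a difference of -0.69 (adjusted p = 0.00703), and Vcpkmt rose further (2.81 and 1.22, adjusted p = 0.000557). Fam57b (difference 1.22), Dst (0.89) and Atf5 (0.69) were higher in iBAT and not called in eWAT, and Ehd1 (-0.68), Sfxn2 (-1.19) and Creg1 (-0.42), a secreted glycoprotein, had a more negative genotype effect in iBAT, whereas Cd59a had a more negative one in eWAT (0.66). With the mouse as a block, Dst and Atf5 had an adjusted p of 0.0542 and 0.0553, and the other 8 remained called. In iBAT of the flight mice Slc7a8 (-0.38), Fam57b (0.15), Dst (0.28) and Atf5 (0.42) were not called between the genotypes. Vcpkmt, Ehd1, Gstm2, Sfxn2, Creg1 and Cd59a were called there, in the same direction as on the ground. DESeq2 called the difference between flight and ground for Slc7a8, Fam57b and Dst.

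**Figure D5:**
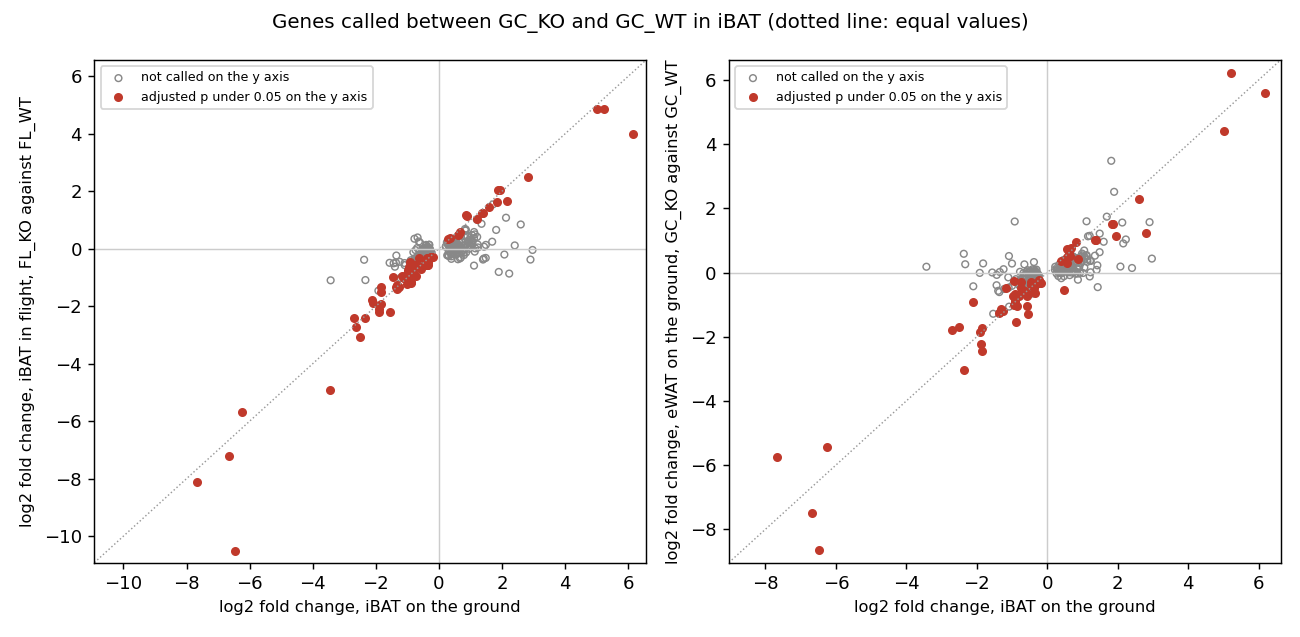
Log2 fold changes of the genes called in iBAT on the ground (horizontal axes) against those of FL_KO and FL_WT in iBAT (left) and of GC_KO and GC_WT in eWAT (right), with genes called on the vertical axis in red. Lower genes follow the dotted line of equal values more closely than higher genes in flight, with medians of -0.33 and 0.14.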

How the data were processed

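RNA of iBAT was sequenced as poly(A) libraries made with a strand-specific kit, and the authors deposited RSEM expected counts and TPM per gene for all samples (STAR 2.6.1 and RSEM 1.3.1 in the submitters' processing notes). The strand setting of the counting is not given in the sources used here. Expected counts were rounded to whole numbers. The 4 iBAT groups (23 libraries, FL_KO replicate 4 left out) were fitted together in edgeR 4.0.16 (R 4.3.3) with filterByExpr by group, TMM factors, quasi-likelihood F-tests and Benjamini-Hochberg adjustment over all genes tested, and genes with an adjusted p under 0.05 were called. All adjusted p-values in the text come from this test unless another tool is named. TPM, deposited as the authors computed it, gave the levels and, as log2(TPM + 1) with genes at a mean of at least 1 TPM in a group, an alternative in limma 3.58.1. DESeq2 1.42.0, RLE factors, no filter, the 12 ground libraries alone, FL_KO replicate 4 included, a skeletal muscle covariate and leaving out each ground mouse were the other alternatives. The mouse number range as a term, and the values within the ranges, were added after seeing the data.

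The members and gene lists were chosen with earlier results of these data known. Genes named were Nfe2l2, called members of the lists (at most 6 per list and direction), the 10 genes per direction with the smallest adjusted p and the 10 with the largest change among non-overlapping genes of at least 1 TPM, such genes within 10 Mb of Nfe2l2, and the brown fat markers. Uncalled list members were added where a list is described. Some list members are counted but not reported here by name. iBAT and eWAT libraries with the same number came from the same mouse, and the correlation of their deviations from the group means was -0.0025 to 0.254. The fits were tested on simulated counts with known changes. Depth was alike in all libraries, so that low genes, such as those with under 100 reads over a group, carry the largest counting error.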

Additional observations from a re-analysis of the deposited data

Results flagged for a closer look

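In 17 of 164 groups of 6 mice checked, 1 mouse lay far from the other 5, beyond Dixon's limit of 0.625 for the gap over the range, where chance gives about 1 in 20. GC_WT replicate 8 was the mouse in 8 of them. Among the 6 GC_WT mice it had the highest TPM of Wdfy1 (2.79), Gstm1 (169.35), Gstm7 (14.56), Sfxn2 (4.61), Ces1f (81.94), Gm10419 (2.45), Gm7868 (0.46, with 0 in the other GC_WT mice) and Ivd (114.7). GC_KO replicate 12 was high for Sfxn2 (1.07), Gm10419 (0.8), the summed white adipocyte markers (97.25) and the summed skeletal muscle markers (175.89). GC_KO replicate 1 was high for Dusp1 (44.14) and Ces1d (496.98), and GC_KO replicate 11 for Ncan (1.73). Of the GC_WT mice, replicate 3 was high for skeletal muscle markers (131.31) and replicate 10 for Schwann cell markers (64.61).

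For 10 named genes the genotype effect differed between iBAT and eWAT by edgeR's test of the difference. The log2 effect in iBAT minus that in eWAT was 1.59 for Vcpkmt, 1.22 for Fam57b, 0.89 for Dst, 0.69 for Atf5 and 0.66 for Cd59a. It was -2.96 for Slc7a8, -1.19 for Sfxn2, -0.69 for Gstm2, -0.68 for Ehd1 and -0.42 for Creg1. What lies behind these values was not tested.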

How the results depend on the processing

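None of the 291 called genes that an alternative tested changed sign, and of 65 named called genes 45 were called under all 21 alternatives. The numbers of calls moved more. DESeq2 called 241 higher and 218 lower, limma on log2(TPM + 1) 62 and 216, and the mouse number term, added after seeing the data, 383 and 338 with 66 list members called (41 without it). Leaving out 1 ground mouse gave 62 to 175 higher, 82 to 170 lower and 21 to 46 list members. The mice that moved a count by over 1.5 times were GC_KO replicates 9 (77 and 84) and 11 (62 and 82), GC_WT replicates 3 (73 and 93) and 6 (70 and 92), and for the higher genes GC_WT replicate 8 (88). In flight DESeq2 called 72 higher and 292 lower and the mouse number term 109 and 324. The difference between flight and ground, 0 by edgeR, was called for 99 genes by DESeq2, 7 by limma, 17 with FL_KO replicate 4 included, 4 with the muscle covariate and 87 with the mouse number term. The difference between depots, 23 genes, was called for 71 by DESeq2, 86 by limma and 22 with the mouse as a replicate block. No paired analysis was possible for the genotype contrast because GC_KO and GC_WT mice shared no number. With an A required after its last letter, the motif was in 2.78% of the promoters of lower genes, 1.504% of those of higher genes, 2.602% of those of all genes tested and 3.04% of all promoters. Uncalled Ucp1 turned to -0.038 in limma and ranged from -0.043 to 0.12 with 1 mouse left out, below 0 without GC_KO replicate 1 (-0.036) or 9 (-0.037) or GC_WT replicate 6 (-0.015) or 8 (-0.043). Uncalled Dio2 ranged from -0.31 to 0.089, above 0 without GC_KO replicate 11 (0.081) or 12 (0.089) or GC_WT replicate 3 (0.072). The causes were not tested.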
